A study of Mus musculus with 2 samples.

Results

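The mitochondrial ribosomal protein genes are the nuclear genes for the proteins of the ribosome inside mitochondria. They were taken as the protein-coding genes whose symbol begins with Mrpl or Mrps and a digit in the GENCODE M21 annotation of the mouse assembly GRCm38. The rule found 78 of the 55487 genes in the deposited table, each with a single identifier. No measured value entered it. RNA sequencing had been done on apoptotic osteoblasts, bone-forming cells killed with ultraviolet light, with 1 library from young and 1 from old mice. Strain, sex, age in months and the number of animals are not given in the labels, and day 0 is written for the young library and day 5 for the old, so age and day cannot be told apart. In both groups the cells had been grown from bone pieces, passaged as marrow stromal cells and given osteogenic medium before the ultraviolet light.

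With 1 library per age there is no replicate check, and every statement compares these libraries. The libraries held 16333396 reads (young) and 18114336 reads (old) assigned to genes, recovered from the FPKM values. FPKM is fragments scaled to gene length and to the library's total. The osteoblast genes Runx2 (92.1 and 72.7 FPKM, young and old), Sp7 (55.5 and 28.9) and Col1a1 (8568 and 6788) were present, while Alpl (2.78 and 3.28) and Bglap (3 and 6 reads) were low. Of 9 osteoblast markers 8 reached the filter of 1 FPKM described next, 4 of them lower and 2 higher in the old library by 1.2-fold or more, and together they took 3.30% and 2.71% of reads. The higher ones were Dmp1 (0.377 and 4.85 FPKM) and Spp1 (224 and 1732 FPKM). Of 14 markers of other cells, the cartilage collagen gene Col2a1 was the single one at 1 FPKM or more (53.3 and 46.8), and Ptprc, Adgre1 and Cd3e had at most 1 read in a library. The 14 together took 0.00978% and 0.00857% of reads. The part of these differences in the results was not tested. In bulk RNA, fewer cells of a type and less RNA per cell cannot be told apart.

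The mitochondrial ribosome translates the few proteins that mitochondrial DNA encodes, all of them subunits of the respiratory chain and ATP synthase. Its ribosomal RNAs are made inside the organelle, while all its proteins are encoded in the nucleus, made in the cytosol and imported. Compared with the bacterial ribosome it has less RNA and more protein, including many proteins found only in mitochondria. Osteoblasts draw on both glycolysis and mitochondrial respiration while they make matrix. The large subunit joins amino acids and the small subunit reads the messenger RNA. Symbols do not always follow the particle, since Mrps30 and Mrps18a sit in the large subunit and Mrps36 is now known as a subunit of the oxoglutarate dehydrogenase complex. The 78 genes were therefore sorted into 51 of the large subunit, 26 of the small subunit and Mrps36.

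The mRNAs of the mitochondrial ribosome were slightly lower in the old library and none differed by 2-fold. The filter, an average of 1 FPKM or more across the libraries, kept 77 of the 78 genes. The measure was the log2 ratio of FPKM + 1 between the old and the young library, which understates differences of low genes. Its median was −0.11 over the 77, against −0.07 over the 12561 genes of any kind that passed the filter, called genes tested. Summed over the 78 genes there were 52483 reads from young and 53020 from old mice, 0.321% and 0.293% of the totals. The ratio of the shares was 0.911, with a 95% counting interval of 0.900 to 0.922, which covers counting error only.

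Of the 77 genes, 55 (71.4%) had log2 ratios below 0, beside 59.6% of all genes tested. At 1.2-fold or more on the FPKM + 1 scale, 17 (22.1%) were lower, beside 22.7% of all genes, so that share was near the background. At the same fold 2 genes (2.60%) were higher, beside 15.4% of all genes. At 2-fold none was lower or higher, beside 0.868% and 1.97% of all genes. The counting interval of the FPKM ratio lay wholly below an even ratio for 30 genes (39.0%) and wholly above it for 3 (3.90%), beside 33.5% and 20.6% of all genes. The SD of the log2 ratio over the 77 genes was 0.19, beside 0.40 for all genes tested and 0.34 for the 8264 of them that averaged 10 FPKM or more. The mitochondrial ribosomal protein genes thus lay closer together than genes in general. So did the nuclear genes of the respiratory chain (SD 0.18) and of the cytosolic ribosome (0.19). When all log2 ratios were centred on the median of the genes tested, 9 of the 77 were lower and 2 higher by 1.2-fold, beside 16.6% and 19.5% of all genes, and 47 were below 0. The genes were shorter than genes tested (median transcript length 1075 against 1634.5 bases) and alike in GC content (51.2% against 50.5%). Across the 77, the log2 ratio followed length weakly (Pearson r 0.17, as a description).

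The large and the small subunit had nearly the same median. The median log2 ratio was −0.11 for the 50 measured large subunit genes and −0.11 for the 26 small subunit genes. Summed reads gave ratios of 0.909 (0.896 to 0.923) and 0.912 (0.892 to 0.932).

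The genes differed far more from each other in level than between the libraries. Among young values the lowest of the 77 was 6.53 FPKM, the median 32.5 and the highest 210.7, and among old values these were 6.33, 33.1 and 149. Mrps21, a small subunit protein with a bacterial counterpart, was the most abundant in both libraries (211 and 149 FPKM). By the mean of both libraries it was followed by Mrpl18 of the central protuberance (140 and 119), Mrpl52 (114 and 120), Mrpl54 (97.0 and 119) and Mrpl14 (99.0 and 93.4). By the same mean the least abundant were Mrps30 (6.53 and 6.33 FPKM), Mrpl1 (7.01 and 6.44), Mrps31 (9.91 and 8.27), Mrpl47 (9.71 and 8.76) and Mrps22 (9.13 and 9.80). The highest stood 32.3-fold above the lowest in the young and 23.6-fold in the old library, although most of these proteins are present in a single copy per ribosome. The order depends on the length used. With the same reads over the length of all exons merged, an alternative added after seeing the data, the range was 50.3-fold and 44.0-fold. Mrps21 then stayed highest in the young library (113.5 against 66.6 for Mrpl54), Mrpl54 was highest in the old (81.6 against 80.4 for Mrps21), and Mrpl33, not Mrps30, was lowest (2.26 and 1.85). Across the 77 genes, level went down with transcript length (Spearman rho −0.66, Pearson r −0.69 of the log2 values), and length is itself the divisor in FPKM. With the deposited lengths, the order of levels was nearly the same in both libraries (Spearman rho 0.98).

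**Figure D1:**
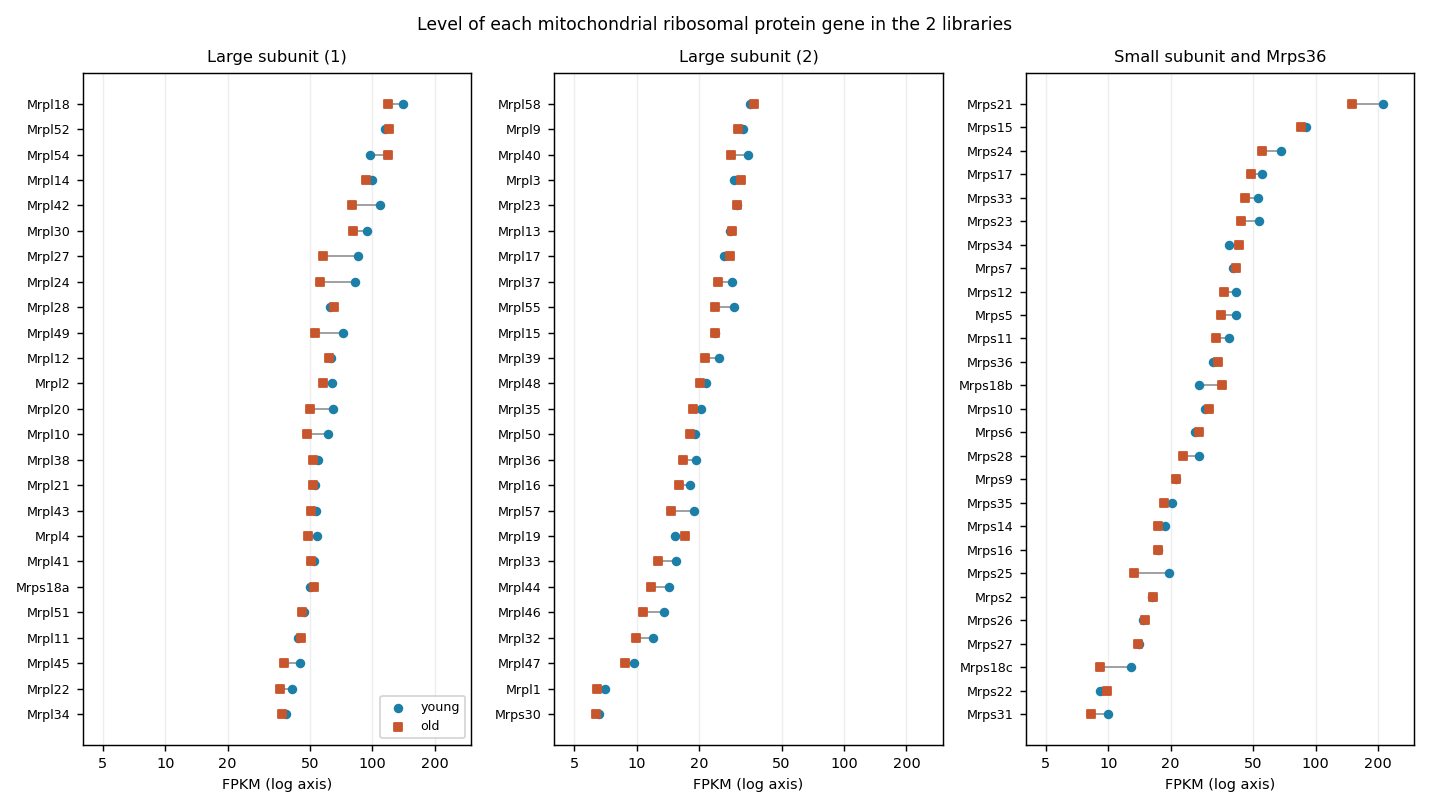
FPKM of each of the 77 measured genes in the young (circles) and old (squares) library on a log axis, ordered by mean level within the large subunit (50 genes, in 2 panels) and the small subunit with Mrps36 (27 genes). A grey line joins the libraries. Mrps21 is the highest at 211 and 149 FPKM, and Mrps30 the lowest at 6.53 and 6.33.

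The genes with the lowest ratios came from both subunits. Mrpl27 (ENSMUSG00000024414, chromosome 11, 94653767 to 94660089, GRCm38), whose bacterial counterpart reaches toward the catalytic centre, was at 84.7 FPKM (young) and 57.4 FPKM (old), on 793 and 596 reads. Its ratio was 0.678 (0.608 to 0.755). Mrpl24 (ENSMUSG00000019710, chromosome 3, 87919506 to 87923672), near the exit of the peptide tunnel, was at 82.2 and 55.8 FPKM, a ratio of 0.679 (0.626 to 0.737). Both were thus about as low, and their intervals overlapped.

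Mrps25 (ENSMUSG00000014551, chromosome 6, 92169525 to 92184033), a small subunit protein, was at 19.6 and 13.4 FPKM, a ratio of 0.682 (0.612 to 0.760). Mrps21 had a ratio of 0.708 (0.653 to 0.768) on 1370 and 1076 reads. Mrpl42, a mitochondrion-specific large subunit protein with the most reads of any member (2026 and 1652), was at 108 and 79.5 FPKM, a ratio of 0.735 (0.689 to 0.785). Mrpl49, also of the large subunit, was at 72.0 and 52.7 FPKM on 1072 and 869 reads, a ratio of 0.731. These 6 genes were all lower in the old library beyond counting error. Mrps18c (12.8 and 9.16 FPKM) had a ratio of 0.714, between those of Mrps21 and Mrpl49, on only 101 and 80 reads. After these came Mrpl20 (64.2 and 49.9 FPKM), Mrpl57 (18.9 and 14.7), Mrpl10 (61.0 and 48.5), Mrpl46 (13.6 and 10.7) and Mrps24 (68.5 and 55.5), with log2 ratios from −0.36 to −0.30.

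Some of these values rest on sequence that other genes share. Of the exon bases of Mrps25, 69.8% overlap those of Nr2c2 on the other strand, and Nr2c2 itself was at 34.5 and 34.2 FPKM. Mrpl24 overlaps Rrnad1 (20.1 and 14.2 FPKM) over 26.3% of its exon bases. Of the 50-base words of Mrpl27, 36.05% were also found in transcripts of other genes, among them Gm6304 and Eme1. Mrps21 shared 13.8% of its words, Mrpl42 10.8% and Mrpl49 1.4%. Over all members, 30 of 78 had at least 10% of exon bases or words shared, and the part of this in single ratios was not tested. Among the 48 with less, the median log2 ratio was again −0.11, but the SD was 0.15, against 0.19 over the 77. By 1.2-fold or more, 8 of the 48 were lower and 1 higher, beside 22.7% and 15.4% of all genes. Over the 77 these counts were 17 and 2.

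The 2 genes at 1.2-fold or more higher in the old library were Mrps18b and Mrpl54. Mrpl54 (ENSMUSG00000034932, chromosome 10, 81264713 to 81266934), a mitochondrion-specific protein of the large subunit, was at 97.0 FPKM (young) and 119 FPKM (old), on 898 and 1220 reads. Its ratio was 1.23 (1.12 to 1.34). Mrps18b (ENSMUSG00000024436, chromosome 17, 35910379 to 35916389) was at 27.5 and 35.4 FPKM on 317 and 453 reads, a ratio of 1.29 (1.11 to 1.49). Of its words, 45.8% are shared with other genes, among them Gm16279 on the other strand, which itself had only 13 and 6 reads. Mrps34 was the third gene with an interval above an even ratio (38.4 and 42.9 FPKM, ratio 1.12, 1.02 to 1.23). Its exons overlap Mapk8ip3 and Nme3 over 77.8% of their bases. Mrpl54 was therefore the single gene with an interval above an even ratio and less than 10% of shared sequence. With the trends of length and GC content removed its log2 ratio was 0.25, under the 1.2-fold limit of 0.26. Mrps18b alone thus stayed higher in every setting in which it was counted. It was not among the members with less than 10% of shared sequence. Mrpl19 (15.3 and 17.1 FPKM), Mrpl3 (29.6 and 31.9) and Mrps22 had log2 ratios from 0.09 to 0.15 and intervals that held an even ratio.

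**Figure D2:**
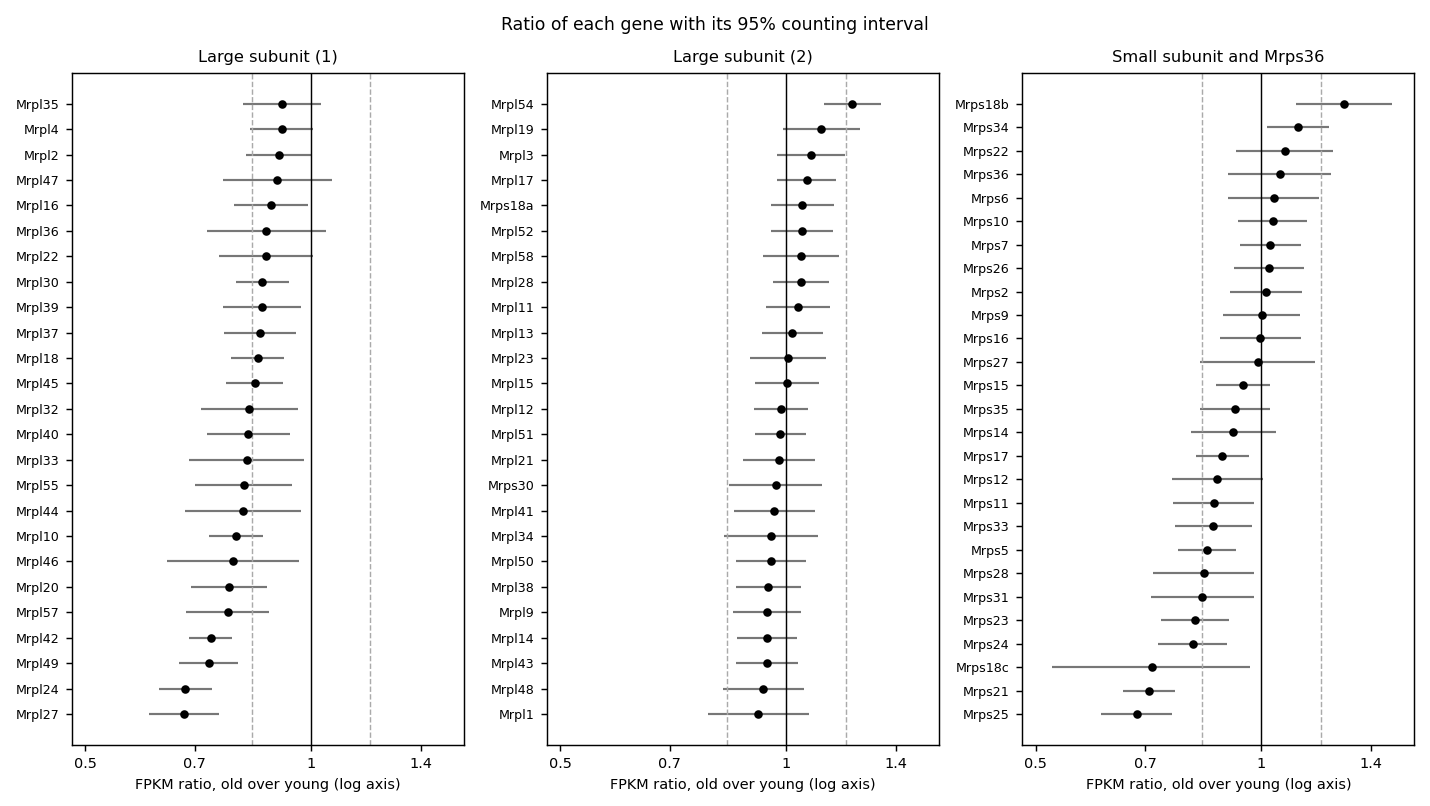
FPKM ratio, old over young, on a log axis for each of the 77 measured genes (points) with its 95% counting interval (bars), ordered by ratio within the large subunit (in 2 panels) and the small subunit with Mrps36. The solid line is an even ratio and the dashed lines are 1.2-fold. Mrpl27 is lowest at 0.678 and Mrps18b highest at 1.29.

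By region of the ribosome, counts of lower genes are to be read beside the 59.6% of all genes tested that were below 0 and the 22.7% lower by 1.2-fold. In the central protuberance, which in mitochondria is built mostly of protein, 6 of 7 genes had log2 ratios below 0, 3 of them at 1.2-fold or more, and summed reads gave 0.903 (0.866 to 0.942). Mrpl46, Mrpl55 (29.4 and 23.9 FPKM), Mrpl40 (34.5 and 28.4) and Mrpl18 had intervals below an even ratio. Those of Mrpl48 (21.6 and 20.2), Mrpl38 (54.8 and 51.9) and Mrps18a (49.8 and 52.4) held it.

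At the rim of the exit tunnel, where new proteins leave toward the inner membrane, 7 of 9 genes were below 0 and 2 (22.2%) were lower by 1.2-fold or more, near the 22.7% of all genes tested. Summed reads (6037 and 5817) gave 0.869 (0.838 to 0.901), with 1379 and 1039 of them from Mrpl24. This was the lowest summed ratio of the regions. By median log2 ratio the central protuberance (−0.23) lay below the rim (−0.19). Mrpl24 and Mrpl44, which carries an RNase III-type fold (14.4 and 11.7 FPKM), were the lower ones. Mrpl45, which anchors the ribosome to the inner membrane, was at 44.6 and 37.5 FPKM (ratio 0.841, 0.770 to 0.918). Mrpl39 (24.9 and 21.4 FPKM) also had an interval below an even ratio. Those of Mrpl22 (41.0 and 35.7), Mrpl47, Mrpl50 (19.0 and 18.1), Mrpl23 (30.4 and 30.6) and Mrpl17 (26.5 and 28.2) held it.

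The stalks, which receive translation factors and release spent tRNA, were uneven. Mrpl10 had a ratio of 0.795, whereas Mrpl12, the protein that Mrpl10 holds on the stalk in several copies, was at 62.8 and 61.8 FPKM (ratio 0.984, 0.905 to 1.07). The intervals of Mrpl10 (0.732 to 0.863) and Mrpl12 did not overlap, and each shares some exon bases with other genes (14.1% and 13.1%). Mrpl11 (43.6 and 45.2 FPKM) and Mrpl1 had intervals that held an even ratio, and Mrpl54 was higher. Summed reads of the 6 stalk genes (4286 and 4682) gave 0.985 (0.945 to 1.03), and 898 and 1220 of these reads were from Mrpl54. That interval lies above those of the central protuberance and the exit tunnel rim. Single genes weigh on such sums, which were not repeated without Mrpl54 or Mrpl24, so no order of the regions is drawn from them.

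In the small subunit, the 5 genes nearest the decoding site had none at 1.2-fold. Mrps5 (41.1 and 34.8 FPKM), Mrps11 (38.3 and 33.1) and Mrps12 (41.5 and 36.2), the counterpart of the bacterial protein that monitors codon pairing, were below even, and Mrps7 (40.1 and 41.2) and Mrps9 (21.3 and 21.3) were at or above it. Among 10 small subunit proteins found mainly in mitochondria, 2 were lower (Mrps25 and Mrps23, the latter at 53.5 and 43.7 FPKM) and 1 was higher (Mrps18b) by 1.2-fold or more. Summed reads were at 0.923 (0.879 to 0.968) for the first set and 0.935 (0.901 to 0.971) for the second.

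The 3 paralogues of the bacterial protein S18 went different ways. Mrps18a, in the large subunit, had a ratio of 1.05 (0.954 to 1.16). Mrps18b had 1.29 and Mrps18c had 0.714 (0.526 to 0.967), and the intervals of these last did not overlap, although both share sequence with other genes. Mrpl58, a peptidyl-tRNA hydrolase that became part of the ribosome, was at 35.1 and 36.8 FPKM, Mrps30 had a ratio of 0.968 (0.840 to 1.12), and Mrps36 was at 32.0 and 33.9 FPKM.

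Mrpl53 (chromosome 6, 83109040 to 83109939), a protein beside the stalk, was the single member under the filter. No read was counted for it (0 in each library), and the limit that 3 reads set is 0.261 FPKM for young and 0.236 FPKM for old. On the same strand, 88.0% of its exon bases lie within exons of another protein-coding gene, Gm42688, which had 36 and 22 reads. How reads in bases of more than 1 gene were counted is stated in no source used here. Of processed pseudogenes with Mrpl or Mrps symbols, Mrpl23-ps1 and Mrpl48-ps had 31 and 29 reads over both libraries together.

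Other genes of mitochondrial translation were set beside the ribosomal proteins from lists, whose counts at 1.2-fold stand beside 22.7% lower and 15.4% higher among all genes tested. The 5 ribosomal proteins with other symbols (Dap3, Ptcd3, Chchd1, Aurkaip1 and Gadd45gip1) had none at 1.2-fold, a median of −0.04 and summed reads at 0.924 (0.886 to 0.962). Dap3 was at 82.6 and 68.8 FPKM. The 2 ribosomal RNAs, mt-Rnr1 (446 and 397 FPKM) and mt-Rnr2 (663 and 680), had ratios of 0.891 and 1.03. They were measured in libraries from an mRNA kit, whose capture of these RNAs no source used here states.

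Among 26 ribosome assembly genes, 9 were lower and 1 higher by 1.2-fold or more, with a median of −0.21. The GTPases Gtpbp10 (24.9 and 15.1 FPKM), Mtg2 (15.7 and 9.69) and Mtg1 (9.87 and 6.48), which check the large subunit during assembly, had the lowest ratios, and Mterf3, an MTERF family protein needed for ribosome assembly, was at 28.9 and 20.8 FPKM. C1qbp was the higher one (55.1 and 70.9). Of 15 measured translation factors, 5 were lower and none higher, with Guf1 (21.8 and 12.4 FPKM) and the methionyl-tRNA formyltransferase Mtfmt (17.1 and 13.1) lowest, while the elongation factor Tufm was at 62.5 and 74.5 FPKM. Genes that charge mitochondrial tRNA went both ways, with 5 of 19 lower (Cars2 at 25.2 and 14.9 FPKM) and 3 higher (Gatb at 4.87 and 6.81, Iars2 at 16.8 and 22.4). Their median was −0.03, and −0.23 over those that averaged 10 FPKM or more.

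Genes for mitochondrial DNA upkeep and RNA handling had 5 of 16 lower and 1 higher, with a median of −0.11, among them Tefm (10.8 and 8.08 FPKM), Mgme1 (7.07 and 5.32) and Rexo2 (117 and 151). Of the 12 measured mRNAs that mitochondrial DNA itself encodes, the products that these ribosomes read, 2 were lower and 2 higher, with a median of 0.06. The higher ones were mt-Atp6 (58.5 and 130 FPKM, ratio 2.23) and mt-Nd6 (272 and 385 FPKM). The lower ones were mt-Nd5 (1872 and 1549 FPKM) and mt-Nd4l (7.01 and 5.39 FPKM, on 34 and 29 reads). Protein import had 3 of 21 lower and 4 higher. Its chaperones Hspa9 (183 and 275 FPKM) and Hspd1 (226 and 287) were higher, and the presequence peptidase Mipep (9.21 and 6.03) was lower. Mitochondrial proteases had 1 of 9 higher, Htra2 (33.2 and 44.6 FPKM), and none lower. Of 11 abundant mitochondrial proteins used as a gauge of mitochondrial content, such as Cs and Vdac1, none was at 1.2-fold and the median was −0.08.

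The nuclear genes of the respiratory chain had 16 of 78 lower, 1 higher and a median of −0.15. In the cytosolic ribosome 3 of 79 were lower and 4 higher, with a median of −0.002 and summed reads at 0.991 (0.988 to 0.993). The cytosolic genes farthest from even were Rps27a (309 and 612 FPKM), Rpl17 (309 and 218) and Rpl30 (403 and 557). Among regulators of mitochondrial biogenesis, 2 of 8 measured genes were lower and 1 higher. These were Myc (81.8 and 56.6 FPKM), Nrf1 (22.1 and 18.2), which encodes nuclear respiratory factor 1, and Pprc1 (39.3 and 49.7). Gabpa, the ETS factor also called nuclear respiratory factor 2, was at 33.3 and 29.6 FPKM, and Ppargc1a had 1 and 0 reads. After centring, the medians of the cytosolic ribosome, the tRNA charging genes and the ribosomal proteins with other symbols turn positive, since they lie above the −0.07 of all genes tested.

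**Figure D3:**
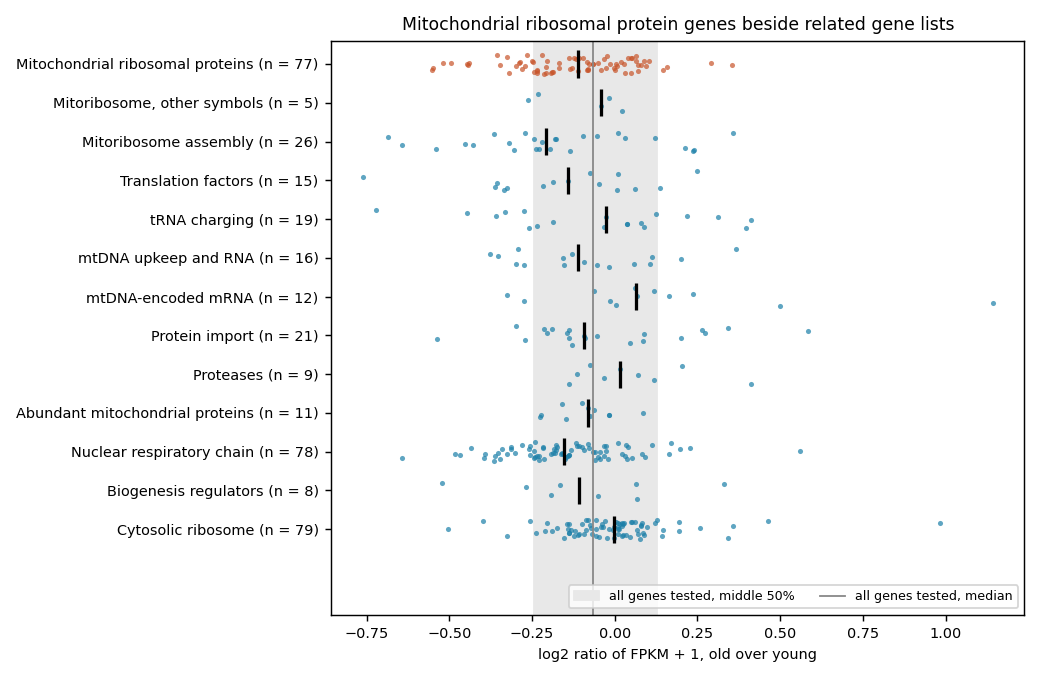
Log2 ratio of FPKM + 1 (old over young) of every measured gene (points) of the mitochondrial ribosomal proteins and 12 related lists, with medians as black bars. The grey band holds the middle 50% of all 12561 genes tested and the grey line is their median of −0.07. The mitochondrial ribosomal proteins have a median of −0.11 and all lie between −0.55 and 0.35.

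Many of these genes start back to back with another gene. Of the 77, 33 (42.9%) had a start within 1000 bases of the start of a protein-coding gene on the other strand, facing away or overlapping at the 5′ ends, beside 1912 of 10964 protein-coding genes tested (17.4%). In 15 of the 33 the 2 genes overlapped at their starts. Mrpl46 and Mrps11, of the large and the small subunit, form such a pair with each other on chromosome 7, and both were lower in the old library (ratios 0.786, 0.642 to 0.963, and 0.864, 0.763 to 0.978). Other neighbours also act in mitochondria: Mrpl36 lies beside Ndufs6, Mrpl47 beside Ndufb5, Mrpl43 beside the helicase gene Twnk and Mrps12 beside Sars2, which charges mitochondrial serine tRNA.

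Both genes passed the filter in 29 pairs. In 15 both log2 ratios were below 0, in 1 both were above 0 (Mrpl54 and Apba3, the latter at 60.0 and 67.2 FPKM), and in 13 they had opposite signs. Of the neighbours, 7 were lower and 2 higher by 1.2-fold or more, with a median of −0.09, and 7 of 29 is near the 22.7% of all genes tested. The lowest pairs were Mrpl27 with the endonuclease gene Eme1 (14.2 and 10.3 FPKM) and Mrpl57 with the kinetochore gene Ska3 (23.8 and 16.1). Mrpl49 was lower while its neighbour Fau, which encodes a ubiquitin-like protein fused to a cytosolic ribosomal protein, was at 1191 and 1223 FPKM. Over the 29 pairs Pearson r was 0.29, as a description, and pairs that overlap can share reads. The signs are to be read beside the 71.4% of members and 59.6% of all genes tested that were below 0. How many unrelated pairs would differ in sign was not worked out. Some values lay near 0, such as those of Mrpl13 and Mtbp (0.03 and −0.04), whose intervals both held an even ratio.

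**Figure D4:**
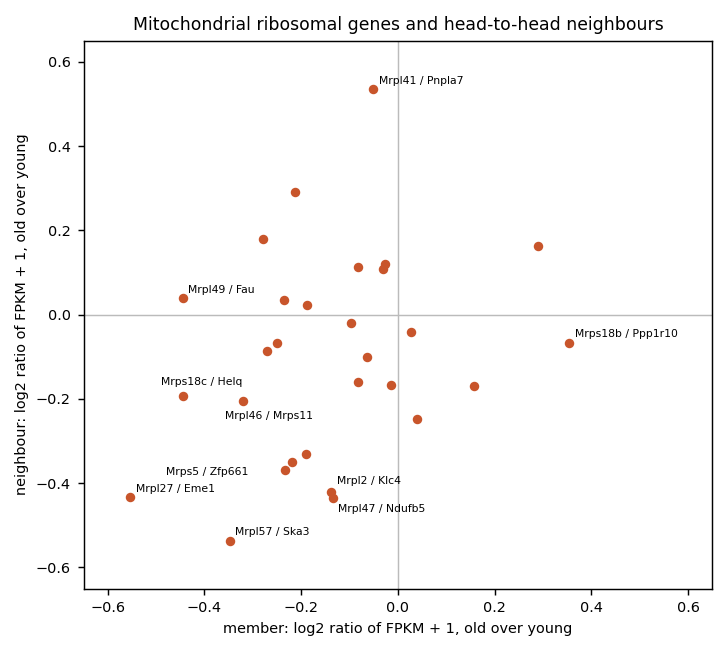
Log2 ratio of FPKM + 1, old over young, of 29 mitochondrial ribosomal protein genes (horizontal axis) and of the gene that starts back to back with each (vertical axis). Some pairs are labelled by name. In 15 pairs both values are below 0, and Mrpl27 with Eme1 lies farthest to the left.

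The start region of the Mrpl46 and Mrps11 pair is printed because 2 members share it. Each line gives the 250 bases before the RefSeq start on the strand of its gene (RefSeq, GRCm38.p6, 5′ to 3′), for Mrpl46 at chr7:78783090-78783339 on the minus strand and for Mrps11 at chr7:78782881-78783130 on the plus strand. Capitals mark the 41 bases that lie between the 2 starts, which are the reverse complement of each other. The annotations disagree here. In GENCODE, used for the counts of pairs, Mrpl46 starts 442 bases farther upstream and the 2 genes overlap at their starts, so the bases between the RefSeq starts lie within the GENCODE Mrpl46 gene. The window of Mrps11 also holds the YY1 motif described next, in reverse, 107 bases before the start.
Mrpl46: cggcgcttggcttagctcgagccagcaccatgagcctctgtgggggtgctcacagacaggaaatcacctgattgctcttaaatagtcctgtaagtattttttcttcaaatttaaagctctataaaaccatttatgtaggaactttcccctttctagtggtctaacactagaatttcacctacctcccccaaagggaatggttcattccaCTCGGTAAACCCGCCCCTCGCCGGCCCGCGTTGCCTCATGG
Mrps11: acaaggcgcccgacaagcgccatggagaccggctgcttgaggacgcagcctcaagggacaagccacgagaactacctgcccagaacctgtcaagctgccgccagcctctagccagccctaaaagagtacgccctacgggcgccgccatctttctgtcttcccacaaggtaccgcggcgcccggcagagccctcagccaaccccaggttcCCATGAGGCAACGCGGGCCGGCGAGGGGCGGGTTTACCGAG

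Promoters of RefSeq (250 bases before to 50 after a start) were matched by symbol for 69 of the 78 genes and searched on both strands for motifs of factors known to control mitochondrial genes. A gene counted if any of its listed starts held the motif, so genes with more starts had more chances of a match. The 69 members had 75 listed starts and all 27025 genes with promoters had 32851. The part of this in the shares was not tested. CCGGAAG, the core bound by ETS factors such as Gabpa, was in 26 of 69 members (37.7%), beside 21.8% of 8704 protein-coding genes tested and 9.93% of all 27025 genes in the table. It was as frequent in cytosolic ribosomal protein genes (38.7%), and less so in respiratory chain genes (24.2%). AAGATGGC, the core of the YY1 motif, was in 12 members (17.4%), beside 5.77% of genes tested and 3.19% of all. It was in 13.6% of respiratory chain genes and 9.68% of cytosolic ribosomal protein genes. The palindromic motif of nuclear respiratory factor 1 was in 3 members (4.35%), beside 2.54% and 1.07%, and GCGCATGC, which lies within it, in 8 (11.6%), beside 6.48% and 3.05%. Respiratory chain genes held these more often (7.58% and 15.2%) and cytosolic ribosomal protein genes less often (3.23% and 4.84%).

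GGGCGG, the GC box of SP factors, was in 34 members (49.3%) against 71.3% of genes tested and 38.2% of all. Respiratory chain genes held it less often than the members (39.4%) and cytosolic ribosomal protein genes more often (61.3%). CCAAT was in 39.1% against 43.7% and 41.1%, TATAAA in 7.25% against 8.2% and 15.7%, and CACGTG, the E-box that MYC binds, in 7.25% against 12.02% and 8.09%. A match is a description of the letters and not of binding. Members with the ETS core had a median log2 ratio of −0.07 (25 genes) and those without it −0.17 (43 genes), and with the YY1 core −0.20 (12 genes) against −0.10 (56 genes). No test of these differences was run.

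**Figure D5:**
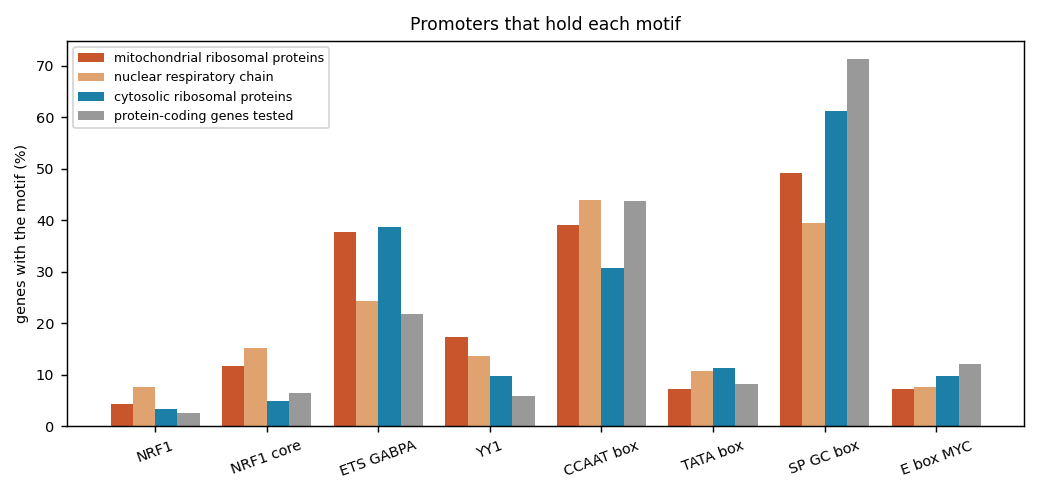
Percentage of genes whose RefSeq promoter window holds each motif on either strand, for mitochondrial ribosomal proteins (69 genes), nuclear respiratory chain (66), cytosolic ribosomal proteins (62) and protein-coding genes tested (8704). ETS and YY1 bars are higher for mitochondrial ribosomal proteins (37.7% and 17.4%) than for genes tested (21.8% and 5.77%), and the GC box bar is lower (49.3% against 71.3%).

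Further upstream sequences show the range of these starts. Mrpl32 (chr13:14613038-14613287, minus strand) is printed as the single member with 2 kinds of the ETS, YY1 and full nuclear respiratory factor 1 motifs in the 250 bases before its start, chosen after its values were seen. Its capitals mark the YY1 core in reverse and, 87 bases before the start, the palindrome of nuclear respiratory factor 1. Over all counted bases, Mrps12, Mrps18a and Mrps27 also held 2 kinds, the ETS and YY1 cores. Mrpl32, whose bacterial counterpart is L32, was at 11.9 and 9.86 FPKM (ratio 0.828, 0.713 to 0.960). Mrpl27 (chr11:94653541-94653790, plus strand) had the lowest ratio and holds the ETS core, in capitals, 55 bases before the start. Mrps18b (chr17:35916441-35916690, minus strand) had the highest ratio of all 77. Its printed window holds none of the full ETS, YY1 and nuclear respiratory factor 1 motifs but does hold GCGCATGC in reverse, and over all its counted bases Mrps18b was among the genes with the ETS core.
Mrpl32: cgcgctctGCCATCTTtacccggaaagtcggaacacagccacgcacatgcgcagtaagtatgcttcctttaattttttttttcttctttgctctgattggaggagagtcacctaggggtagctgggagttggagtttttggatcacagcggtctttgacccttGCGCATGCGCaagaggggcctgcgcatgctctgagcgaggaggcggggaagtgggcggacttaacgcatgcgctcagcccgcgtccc
Mrpl27: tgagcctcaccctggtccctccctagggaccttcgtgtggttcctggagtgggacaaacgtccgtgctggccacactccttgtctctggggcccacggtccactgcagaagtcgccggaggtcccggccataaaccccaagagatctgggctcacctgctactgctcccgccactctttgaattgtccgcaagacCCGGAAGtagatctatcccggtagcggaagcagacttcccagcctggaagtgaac
Mrps18b: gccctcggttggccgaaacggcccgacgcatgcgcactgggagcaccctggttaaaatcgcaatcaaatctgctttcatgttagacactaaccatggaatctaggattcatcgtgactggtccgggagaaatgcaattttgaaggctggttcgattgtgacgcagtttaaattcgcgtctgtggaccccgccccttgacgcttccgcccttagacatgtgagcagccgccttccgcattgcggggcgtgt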

How the data were processed

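RNA was sequenced from 2 libraries, young and old, grouped by the age label. The deposited table holds FPKM values that the authors made, without a count of reads. The submitters' processing notes name mm10 as the build and, as tools, edgeR, HTSeq, STAR and fastp; their versions and roles, the annotation and any use of strand are stated in no source used here. GENCODE M21 held 55227 of the 55487 identifiers. Reads were recovered with the rounded mean transcript length as gene length: 97.6% of values above 0 in each library came out whole within 0.01, as did all 77 members with reads.

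The measure was the log2 ratio of FPKM + 1 for genes that averaged 1 FPKM or more, and no test was run. Intervals are exact 95% Clopper-Pearson intervals of the old library's share of reads, turned into an FPKM ratio. PCR copies are not independent, so intervals and floors (3 reads) cover counting error only. Members and lists were chosen with earlier results of these data known. Named genes are the 12 highest and 12 lowest members by log2 ratio, the 5 most and 5 least abundant, members of the named regions, the Mrps18 paralogues, Mrps30, Mrps36, Mrpl57 and Mrpl58, up to 4 genes per list, and back-to-back neighbours; others were chosen after their values were seen. Shared words are 50 bases taken every 25 bases and searched in transcripts of other genes. Protein sequences were not analysed here. Calculations were tested on simulated data and run in Python 3.11.15 with numpy 2.4.6, pandas 2.3.3 and scipy 1.17.1.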

Additional observations from a re-analysis of the deposited data

How the results depend on the processing

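With 1 library per age, counting error is the single error known, and no paired analysis was possible because each age has 1 library. The 8 other settings were other pseudocounts (0.1 and 5), no filter or a mean of at least 10 FPKM, centring on the median of all genes, rescaling without the 10 most abundant genes, members with little shared sequence or overlap, and removal of length and GC trends. The median log2 ratio stayed below 0 in all of them, from −0.13 to −0.05. Genes lower by 1.2-fold numbered 17 of 77, and from 8 to 19 over the settings. They numbered 9 after centring and 8 of only 48 among members with little shared sequence. With pseudocounts of 5 and 0.1 they numbered 12 and 18, and after removal of the trends 19. Of all genes, 22.7% were lower in the main setting. In the other settings just listed the shares were 16.6%, 22.7%, 14.6%, 25.3% and 26.5%, in the same order. Genes higher numbered 2, but 1 among the 48 members and 1 after removal of the trends, where Mrpl54 was lost. Beside these, 15.4%, 15.4% and 13.4% of all genes were higher. A set of 9 genes stayed lower at 1.2-fold wherever they were counted. Of these, Mrpl20, Mrpl49 and Mrpl57 were counted in every setting. Mrpl24, Mrpl27, Mrpl42, Mrps18c, Mrps21 and Mrps25 were not among the 48 members with little shared sequence, so that setting could not judge them. The like share of all genes was not worked out. Over the length of all exons merged, an alternative added after seeing the data, levels in the young library spanned 50.3-fold in place of 32.3-fold, and in the old library 44.0-fold in place of 23.6-fold.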
